A study of Mus musculus with 10 samples.

Results

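The broad RUNX1 domains of mouse large biliary epithelial (MLE) cells are described here. They are stretches of the genome at least 5000 bp wide over which overlapping RUNX1 peaks were called. Peaks of 6 chromatin immunoprecipitation sequencing (ChIP-seq) lists were merged wherever they shared at least 1 bp, and regions starting between 3 and 20 Mb of chromosome 5 were left out. Of the 59292 merged regions left, 258 (0.435%) were chosen by their merged width of at least 5000 bp, a measured value. MLE cells are epithelial cells of the larger bile ducts and were grown nearly to confluence, and their identity was not checked here, since peaks give no expression. They were then given TGFβ at 10 ng/mL overnight (3 ChIP libraries) or vehicle (3 ChIP libraries), and RUNX1 was recovered from enzymatically cut chromatin with a polyclonal antibody. Batch 1 holds replicates 1 and 2 of each treatment and batch 2 holds replicate 3 of each. The labels do not say whether same-treatment libraries of batch 1 are separate cultures, so the spread between them may be technical. Values of replicates are given in the order of their numbers, and TGFβ libraries 1 and 2 stand for the batch 1 replicates, as for vehicle.

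RUNX1 is a DNA-binding transcription factor that works as a heterodimer with CBFβ and can recruit activators or repressors of transcription. TGFβ acts through receptor kinases and SMAD proteins, which can share regulatory DNA with RUNX factors. In cholangiocytes, the epithelial cells of the bile ducts, TGFβ is known for its part in growth arrest, matrix production and biliary fibrosis. A transcription factor usually gives a narrow peak. Wider stretches arise where several sites lie close together, as in clustered enhancers, or where signal spreads over an active gene. The lists do not tell these kinds apart. No gene or sequence is given for the regions, because the gene and promoter tables used here are of GRCm38 and the peaks are in GRCm39 coordinates.

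Width chose these regions and is therefore a description. The lists held 33601, 42050 and 18790 peaks with TGFβ and 14733, 21602 and 16265 with vehicle (replicates 1 to 3), and their read depth is unknown. Median width was 5988.5 bp and the widest region reached 20200 bp, against a median of 521 bp over all merged regions. There were 128 regions of 6000 bp or more, 46 of 7500 bp or more and 16 of 10000 bp or more. Together the 258 regions spanned 1.72 Mb, 3.45% of the merged length. No gap in width set them apart at the threshold. The 3 regions just inside were 5011, 5012 and 5019 bp wide, on chromosomes 6, 1 and 6. The 3 just outside were 4998, 4997 and 4993 bp wide, on chromosomes 19, 17 and 11. A class of 1301 regions from 3000 to under 5000 bp wide is used below as the nearest comparison.

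Breadth was seen in batch 1 and chiefly in one library. Single peaks of 5000 bp or more occurred in 207 of the regions in TGFβ replicate 2, in 44 in TGFβ replicate 1, in 21 in vehicle replicate 2 and in 4 in vehicle replicate 1. In both lists of batch 2 there were 0, and the widest peaks there inside a broad region measured 2677 bp (TGFβ replicate 3) and 1827 bp (vehicle replicate 3). The widest peak of a region came from TGFβ replicate 2 in 238 regions, from TGFβ replicate 1 in 16 and from vehicle replicate 2 in 4. In 44 regions no single peak reached 5000 bp, and the width came from peaks of different lists laid end over end. Without TGFβ replicate 2, 82 regions of 5000 bp or more were found instead of 258. Merging the lists of batch 2 alone gave no region wider than 3806 bp outside the chromosome 5 segment.

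Nearly all broad regions were nonetheless called in every list of batch 1. TGFβ libraries 1 and 2 each called 258 of 258, vehicle replicate 1 called 252 and vehicle replicate 2 called 257. All 4 batch 1 lists called 251 (97.3%), against 18.9% of all merged regions and 89.8% of those from 3000 to under 5000 bp. In batch 2, TGFβ replicate 3 called 222 and vehicle replicate 3 called 181. Of all merged regions, TGFβ replicates 1 to 3 called 50.56%, 68.59% and 24.98%, and vehicle replicates 1 to 3 called 21.48%, 31.46% and 21.03%. Of regions from 3000 to under 5000 bp, TGFβ replicates 1 to 3 called 99.8%, 99.8% and 75.4%. Vehicle replicates 1 to 3 called 90.3%, 96.8% and 55.1% of these. All 6 lists called 177 regions (68.6%), where 6.72% of all merged regions and 51.7% of those from 3000 to under 5000 bp were called that widely. Width and the room for a call cannot be told apart here. The other regions were called in 5 lists (45 regions), 4 lists (33) or 3 lists (3).

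Covered length, the summed width of a list's peaks inside a region, describes how much of the region was called in each library. It depends on the authors' threshold and on read depth, which is unknown. In batch 1, the median covered length per region was 4622 and 5780.5 bp in TGFβ libraries 1 and 2, and 2520.5 and 3856 bp in vehicle libraries 1 and 2. In batch 2, it was 804 bp with TGFβ and 542 bp with vehicle. Both TGFβ medians lay above both vehicle medians within batch 1, and the batch 2 medians lay below all 4. As a share of the regions' width, peaks covered 76.4% and 97.0% in TGFβ libraries 1 and 2, 40.7% and 61.5% in vehicle libraries 1 and 2, and in batch 2 they covered 12.8% with TGFβ and 8.77% with vehicle. The batch 2 shares lay below all 4 batch 1 shares, but batch 1 peaks set nearly all the widths that chose the regions. In the other regions called in all 6 lists, TGFβ replicates 1 to 3 covered 72.8%, 94.5% and 31.5% of the width. Vehicle replicates 1 to 3 covered 45.3%, 64.2% and 23.6% there.

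**Figure D1:**
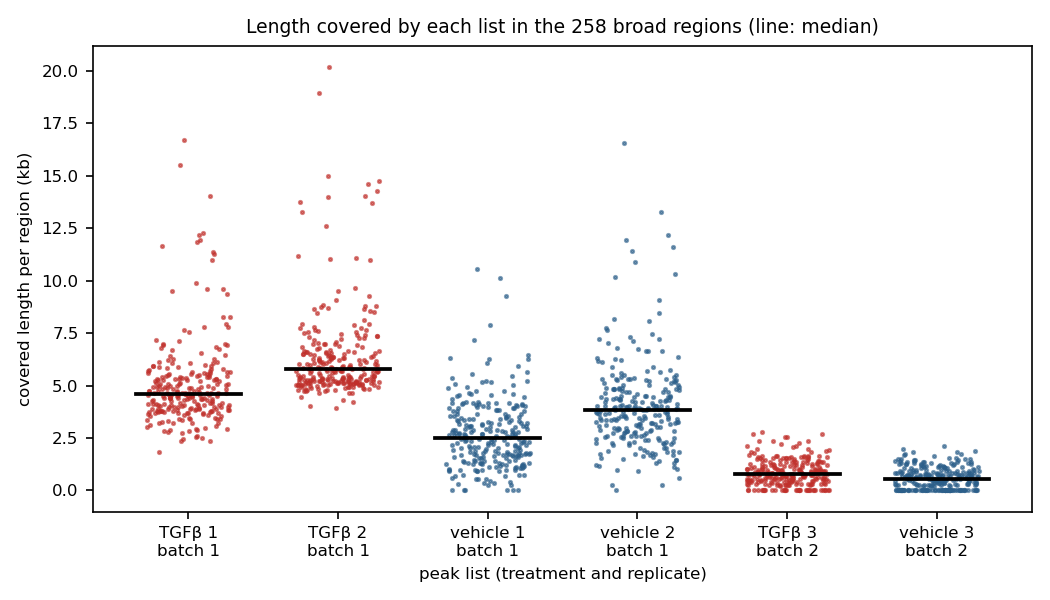
Covered length in kb (vertical axis) of each of the 258 broad regions (points) in the 6 peak lists (horizontal axis, red TGFβ, blue vehicle), with the median of each list as a black line. The medians fall from 5780.5 bp in TGFβ replicate 2 to 542 bp in vehicle replicate 3, and the batch 2 lists lie lowest.

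Covered length was compared between treatments within each batch. Summed over the 258 regions it was 1316 and 1670 kb in TGFβ libraries 1 and 2, and 700.1 and 1058 kb in vehicle libraries 1 and 2. The batch 1 groups did not overlap, and the ratio of their means was 1.70, below the 2.59 over all merged regions. It was 1.91 in regions from 3000 to under 5000 bp and 1.53 in the other regions called in all 6 lists. In the broad regions, TGFβ replicate 1 exceeded vehicle replicate 2 by 1.24-fold. The nearest libraries of the treatments thus differed by less than the batch 1 vehicle replicates did from each other (1.51-fold). Leaving out TGFβ replicate 2 lowered the batch 1 ratio to 1.30. In batch 2, the sums were 220.7 kb with TGFβ and 150.9 kb with vehicle, a ratio of 1.46 with 1 library per treatment. Over all 6 lists, TGFβ covered 1069 ± 756 kb and vehicle 636 ± 457 kb (SD, n = 3), a ratio of 1.68, against 2.40 over all merged regions. The groups overlapped across batches. No test was made, since width chose the regions, and 3 against 3 libraries could give no exact p under 0.1.

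Region by region, both TGFβ lists of batch 1 covered more than both vehicle lists in 207 of 258 (80.2%), and the opposite held in 0. Over all merged regions these shares were 35.3% and 0.552%. Among regions from 3000 to under 5000 bp the first share was 77.9%, close to that of the broad regions. Among the other regions called in all 6 lists it was 61.4%. The TGFβ lists of batch 1 are the longer ones. With every list limited to its 14733 best peaks, 163 of 238 broad regions (68.5%) passed the same criterion, against 69.2% of regions from 3000 to under 5000 bp and 30.6% of all. Without TGFβ replicate 2, 58 of the 82 regions passed. The share of regions with greater cover under TGFβ was thus near that of the class just below in width, and the difference was not tested.

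Libraries with the same wording in their titles, 1 of each treatment and from the same batch, can also be set side by side. TGFβ covered more in 255 of 258 regions in the pair of replicates 1 (48.2% of all merged regions), in 255 in the pair of replicates 2 (65.7% of all) and in 182 in the pair of replicates 3 (22.4% of all). In regions from 3000 to under 5000 bp these shares were 96.4%, 97.2% and 64.6%, against 98.8%, 98.8% and 70.5% of the broad regions. The other regions called in all 6 lists reached 78.4% in the pair of replicates 3. Vehicle covered more in 3, 3 and 44 regions (3.86%, 5.59% and 14.3% of all). The counts for replicates 2 were nearly fixed by the choice of regions, since TGFβ replicate 2 covered 97.0% of their width. Shares of all merged regions also count regions called in neither list of a pair. Within both batches at once, TGFβ covered more in 145 regions (56.2%), against 7.69% of all merged regions and 48.9% of the other regions called in all 6 lists. In 0 of the 258 did every TGFβ list cover more than every vehicle list, a criterion met by 1.26% of all merged regions. Few broad regions could meet it, since batch 1 peaks set the widths and TGFβ replicate 3 covered at most 2798 bp of a region.

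**Figure D2:**
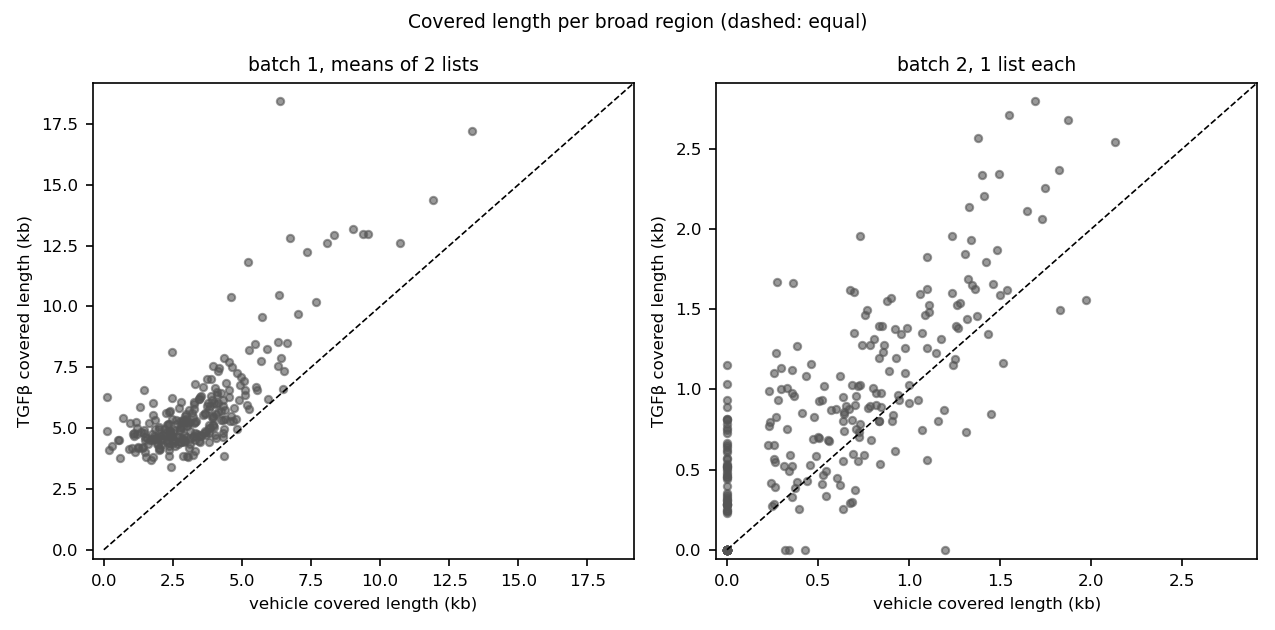
Covered length in kb with vehicle (horizontal axis) and with TGFβ (vertical axis) for each broad region, as means of 2 lists in batch 1 (left) and in the single lists of batch 2 (right), with equality dashed. All but 1 of the points of batch 1 lie above the line, and in batch 2 182 lie above and 44 below.

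The per-region ratio of batch 1 means had a median of 1.68 (quartiles 1.37 and 2.16) over the 251 regions called in all 4 lists. It ran from 0.887 to 6.38. Over all merged regions called in those 4 lists the median was 1.60 (11191 regions), and over those from 3000 to under 5000 bp it was 1.77 (1168 regions). Broader regions did not have larger ratios. From 5000 to under 6000 bp (130 regions) the ratio of summed length in batch 1 was 1.86, from 6000 to under 7500 bp (82 regions) 1.63, from 7500 to under 10000 bp (30 regions) 1.59, and at 10000 bp or more (16 regions) 1.56. TGFβ replicate 2 filled between 96.5% and 98.5% of the width in each of these classes, and vehicle replicate 2 from 55.8% in the narrowest to 71.0% in the widest.

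Batch 2 took almost no part in setting the widths, and so gives values that the choice hardly used. Merging the 4 batch 1 lists alone gave 257 regions of 5000 bp or more. Of these, TGFβ replicate 3 called 221 (86.0%) and vehicle replicate 3 called 180 (70.0%), whereas over all 46082 batch 1 regions the shares were 17.4% and 10.7%. Batch 1 regions from 3000 to under 5000 bp had shares of 75.3% and 55.0%. Called regions among the 257 held a median of 883 bp of peaks with TGFβ and 750.5 bp with vehicle. TGFβ replicate 3 covered more in 182 of the 257, vehicle replicate 3 in 43, and neither list called 32. These counts were 838, 161 and 291 of 1293 regions from 3000 to under 5000 bp, and 7056, 1518 and 37459 of all 46082. The ratio of summed length was 1.46 in the 257 regions, 1.68 in batch 1 regions from 3000 to under 5000 bp and 1.91 in those under 3000 bp. These sums count a region without a call as 0. Over the 6-list merge, the batch 2 ratio was 1.46 in the broad regions, 1.38 over all merged regions and 1.33 in the other regions called in all 6 lists. Per region called in both batch 2 lists, the median ratio was 1.29 in the broad regions and in those from 3000 to under 5000 bp, 1.24 in the other regions called in all 6 lists and 1.18 over all. The order of the classes thus differed with the measure.

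Added length under TGFβ was next divided by where it lay relative to the vehicle peaks of the same pair. In the pair of replicates 1, TGFβ covered 660.7 kb that vehicle did not. Of this, 42.1% filled gaps between vehicle peaks of the region, 54.3% extended beyond the outermost vehicle peaks and 3.63% lay in regions vehicle did not call. In the pair of replicates 2, 631.2 kb were added, with 44.0% filling gaps, 55.2% extending and 0.813% in regions not called. Of the vehicle length, 93.6% and 98.2% was shared with TGFβ in these pairs and 79.4% in the pair of replicates 3. The value for replicates 2 was nearly fixed by the choice of regions, since TGFβ replicate 2 covered 97.0% of their width. In regions from 3000 to under 5000 bp, gap filling made up less of the added length (14.7% and 19.6%). Width and the room for gaps cannot be told apart in this contrast.

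Same-treatment libraries of batch 1 showed the same kind of difference. TGFβ replicate 2 covered 389.3 kb beyond TGFβ replicate 1, of which 52.2% filled gaps and 47.8% extended. Vehicle replicate 2 added 414.3 kb to vehicle replicate 1, with 50.2% filling gaps. Both sums were smaller than those between treatments in batch 1, and they too were divided between gaps and edges. The sum for the TGFβ libraries was capped, since TGFβ replicate 1 already covered 76.4% of the regions' width. Its size beside the sums between treatments therefore tells nothing about treatment. In the pair of replicates 3, 100.9 kb were added, of which 19.7% filled gaps, 56.6% extended and 23.7% lay in regions that vehicle replicate 3 did not call.

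**Figure D3:**
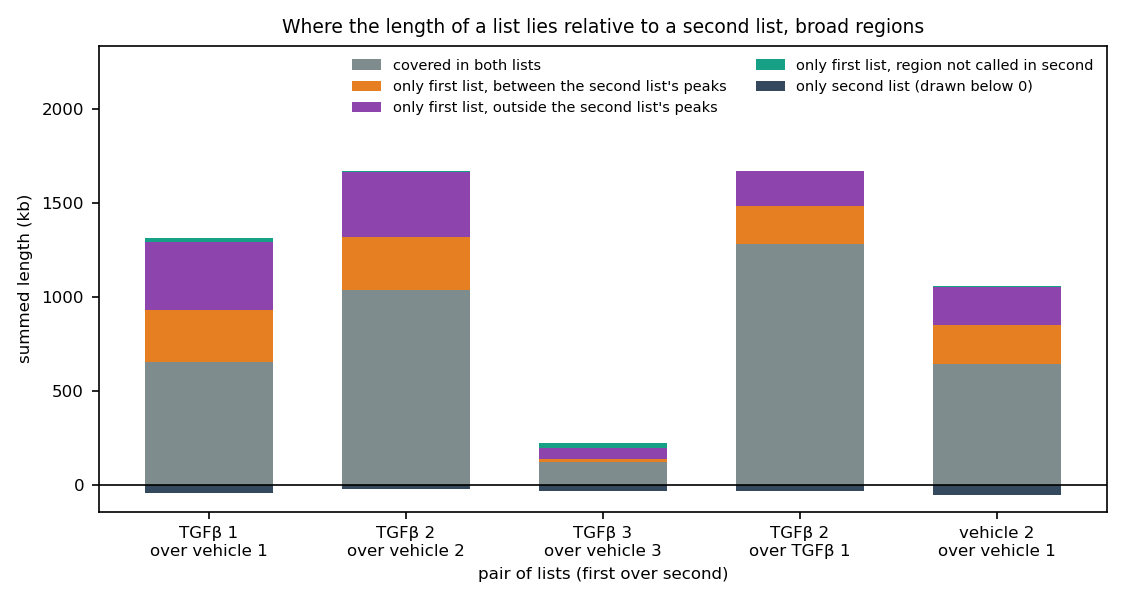
Summed length in kb (vertical axis) of the first list of each pair over the 258 broad regions, split into length shared with the second list, length between its peaks, length outside them and length in regions it did not call. Length found only in the second list is drawn below 0, and the added parts reach 660.7 kb for TGFβ over vehicle replicate 1 and 389.3 kb for TGFβ replicate 2 over replicate 1.

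Peaks were joined as well as lengthened. TGFβ replicate 2 called 211 of the 258 regions as a single peak and averaged 1.22 peaks per region. Its peaks gave most of the widths that chose the regions. The counts below of single, bridging or fewer peaks in that list were therefore nearly fixed by the choice. TGFβ replicate 1, vehicle replicate 1 and vehicle replicate 2 averaged 2.46, 2.57 and 2.49 peaks per region, and had a single peak in 57, 51 and 54. A TGFβ peak bridged at least a pair of vehicle peaks in 149 of 252 regions called in both lists of the pair of replicates 1 (59.1%), in 193 of 257 for replicates 2 (75.1%) and in 23 of 177 for replicates 3 (13.0%). In regions from 3000 to under 5000 bp the shares were 25.5%, 45.6% and 5.38%. TGFβ replicate 2 likewise bridged peaks of TGFβ replicate 1 in 197 of 258 regions (76.4%). Vehicle replicate 2 bridged peaks of vehicle replicate 1 in 126 of 251 regions called in both (50.2%). These same-treatment shares were 50.8% and 22.6% in regions from 3000 to under 5000 bp. Fewer and longer peaks with TGFβ were seen in 92 regions (35.7%) for replicates 1, where the share over all merged regions was 1.34%. For replicates 2 there were 181 (70.2%, against 3.05% of all), and for replicates 3 there were 21 (8.14%, against 0.216% of all). Among regions from 3000 to under 5000 bp the shares were 18.9%, 41% and 2.77% for replicates 1, 2 and 3.

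Of the 10 widest regions, 4 were also among the 10 with the largest batch 1 difference going the same way in batch 2. The difference is in bp, so wider regions had more room for it. The widest, on chromosome 2 from 173097734 to 173117933, was a single peak of 20200 bp in TGFβ replicate 2. Covered length was 16690 and 20200 bp in TGFβ libraries 1 and 2, 4657 and 8061 bp in vehicle libraries 1 and 2, and in batch 2 it was 2713 bp with TGFβ and 1550 bp with vehicle. The batch 1 groups did not overlap, and TGFβ covered more in batch 2, with 1 library per treatment. Batch 1 means differed by 12086 bp, the largest difference of the 258 regions. Its highest fold enrichment, the authors' value at the summit over local background, was 22.5 and 33.7 in TGFβ libraries 1 and 2, and 3.28 and 4.64 in vehicle libraries 1 and 2. In batch 2 the fold was 2.52 with TGFβ and 2.48 with vehicle, so a fold of the size in the batch 1 TGFβ libraries was not seen there. Vehicle peaks of this region were scattered in 6 and 7 pieces in replicates 1 and 2.

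**Figure D4:**
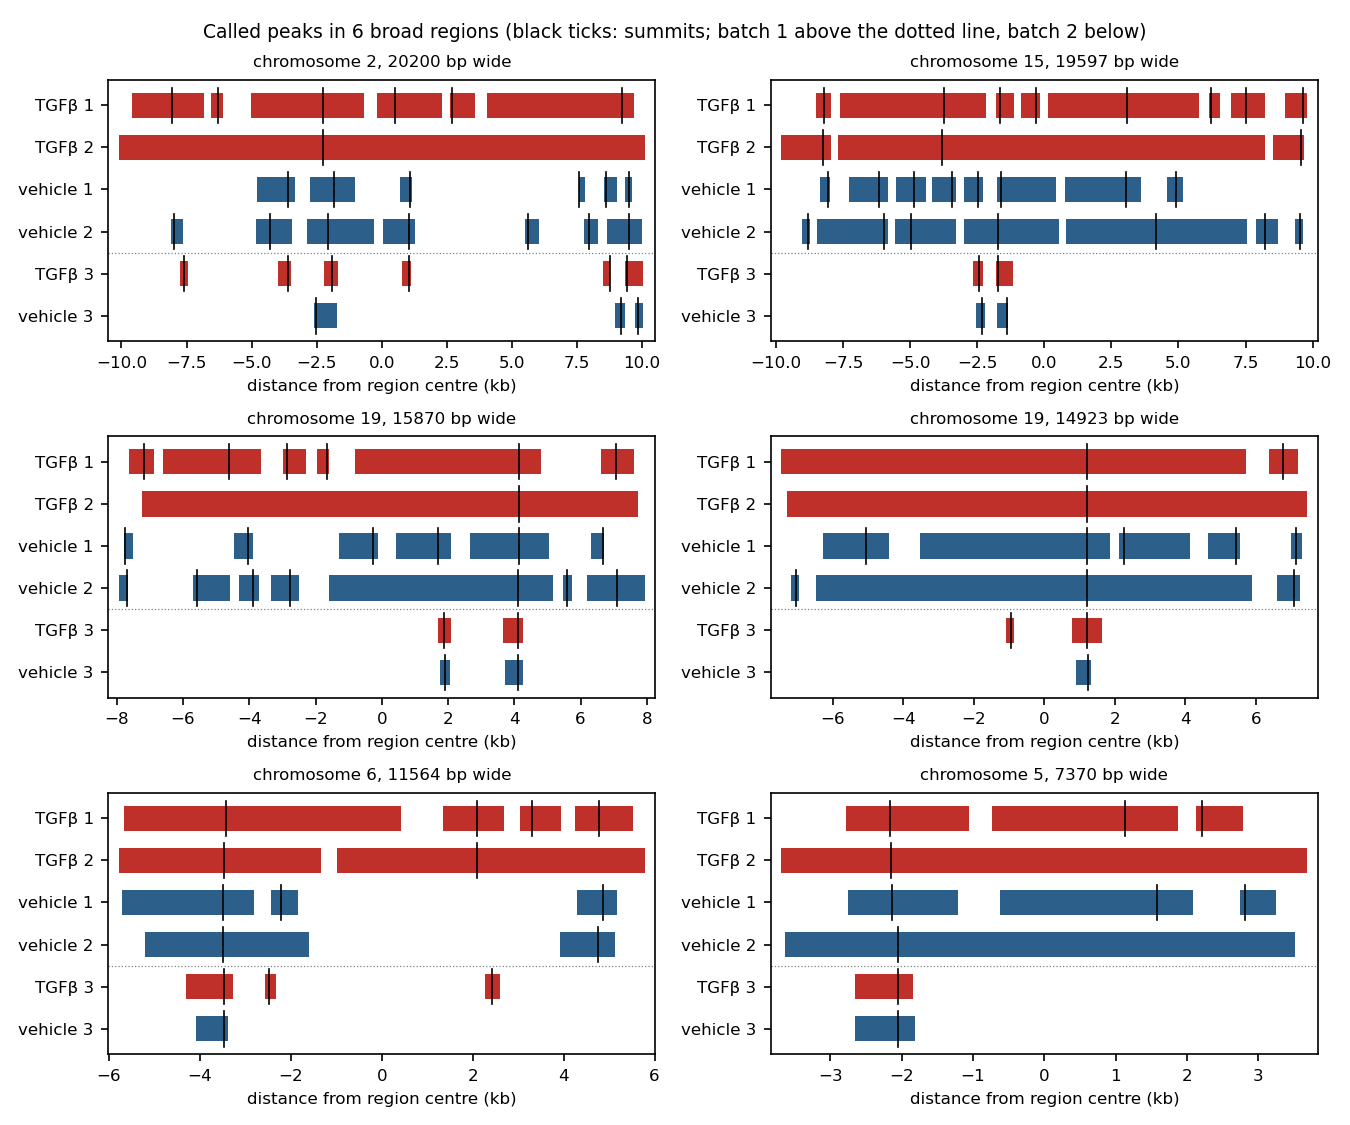
Called peaks (bars, red TGFβ, blue vehicle) and their summits (black ticks) in the 4 widest broad regions, in the region on chromosome 6 with one of the largest TGFβ differences and in the region with the highest fold ranks, against distance from the region centre in kb. TGFβ replicate 2 spans the chromosome 2 region with a single peak of 20200 bp, while batch 2 peaks are short in each of these regions.

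The next widest region, on chromosome 15 from 85547198 to 85566794, behaved otherwise. TGFβ libraries 1 and 2 covered 15517 and 18927 bp, vehicle libraries 1 and 2 covered 10109 and 16569 bp, and replicates 3 covered 1019 bp with TGFβ and 722 bp with vehicle. Batch 1 groups overlapped. Its highest folds were 4.15 and 5.58 with TGFβ, 3.83 and 5.38 with vehicle, 2.23 and 2.12 in replicates 3. A broad region of 7940 bp, ending at 85544608, lay 2589 bp away.

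Chromosome 19 held a pair of neighbouring wide regions. The one from 5841406 to 5857275 (15870 bp) was covered over 11389 and 14988 bp in TGFβ libraries 1 and 2, over 6454 and 11597 bp in vehicle libraries 1 and 2, and over 978 and 820 bp in TGFβ and vehicle replicates 3. The one from 5887286 to 5902208 (14923 bp) was covered over 14016 and 14751 bp with TGFβ, over 10536 and 13265 bp with vehicle, and over 1085 and 434 bp in replicates 3. Only in the latter did TGFβ and vehicle separate within both batches. Both had a fixed strongest summit, within 30 bp across the 6 lists. The latter held the greatest summed length called in all 4 batch 1 lists, 10423 bp. That length was in pieces, since vehicle replicate 1 had 5 peaks there, the widest of 5411 bp.

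The other 3 regions in both sets of 10 were those on chromosome 4 from 82418123 to 82432886, chromosome 11 from 104497248 to 104511308 and chromosome 15 from 40514732 to 40528779. In the chromosome 4 region, TGFβ replicates 1 to 3 covered 11260, 14591 and 2798 bp, and vehicle replicates 6300, 10330 and 1689 bp. In the chromosome 11 region, the values were 11649, 13993 and 1354 bp with TGFβ, and 6064, 7448 and 1071 bp with vehicle. There the folds of TGFβ libraries 1 and 2 reached 34.5 and 39.2, those of vehicle libraries 1 and 2 reached 8.90 and 8.91, while replicates 3 had 3.14 and 2.44. In the chromosome 15 region, the values were 9593, 14033 and 1198 bp with TGFβ, and 3458, 7010 and 928 bp with vehicle. In batch 1, both TGFβ lists covered more than both vehicle lists in each of these 3 regions. The set of largest differences was chosen for greater cover under TGFβ in both batches, which fixed the batch 2 direction.

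Of the remaining 3 of the 10 widest, 1 overlapped between treatments in batch 1. On chromosome 5 from 142796411 to 142810668, TGFβ libraries 1 and 2 covered 10973 and 14258 bp and vehicle 9286 and 12155 bp, so the batch 1 groups overlapped. On chromosome 16 from 29877615 to 29891388, the values were 12198 and 13733 bp with TGFβ and 7865 and 10901 bp with vehicle, and replicates 3 covered 2115 and 1646 bp. On chromosome 6 from 31053650 to 31067335, they were 12258 and 13686 bp with TGFβ and 7171 and 11921 bp with vehicle. Vehicle replicate 3 made no call in the chromosome 6 region, and TGFβ replicate 3 covered 621 bp of it.

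Beyond the widest, 6 regions belonged to the 10 with the largest batch 1 difference among those going the same way in batch 2. On chromosome 6 from 108634909 to 108646472, covered length was 9599, 11193 and 1604 bp in TGFβ replicates 1 to 3 and 4370, 4831 and 699 bp in vehicle replicates 1 to 3. On chromosome 7 from 73200252 to 73209523, it was 6992, 9272 and 878 bp with TGFβ and 1141, 3826 and 668 bp with vehicle. On chromosome 8 from 85701032 to 85713944, it was 11864, 12613 and 1827 bp with TGFβ and 5662, 9077 and 1098 bp with vehicle. In all 3 the batch 1 groups did not overlap, and the choice of this set fixed the batch 2 direction. Their folds in batch 1 were also higher with TGFβ, for example 20.1 and 27.4 against 6.08 and 7.35 at the chromosome 8 region.

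Among the other 3, the region on chromosome 13 from 5910422 to 5917246 was nearly empty with vehicle. TGFβ replicates 1 to 3 covered 3991, 6825 and 574 bp, vehicle replicate 2 covered 1389 bp in 4 short peaks, and vehicle replicates 1 and 3 made no call. Its folds ran from 2.94 in TGFβ replicate 3 to 4.12 in TGFβ replicate 2. The region on chromosome 11 from 86466861 to 86480112 was covered over 11960, 13252 and 1099 bp with TGFβ and 4757, 11432 and 978 bp with vehicle. On chromosome 2 from 13557170 to 13564162, the values were 5435, 6668 and 227 bp with TGFβ, against 1707 and 1817 bp in vehicle libraries 1 and 2 and no call in vehicle replicate 3.

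A few regions, chosen after their values were seen, were absent from some lists. Only TGFβ libraries 1 and 2 and vehicle replicate 2 called the regions on chromosome 15 from 58118763 to 58126406, chromosome 2 from 137296943 to 137302362 and chromosome 8 from 54724084 to 54729280. There TGFβ libraries 1 and 2 covered 3327 to 7644 bp and vehicle replicate 2 covered 244, 244 and 603 bp. The one region vehicle replicate 2 did not call, on chromosome 15 from 64345542 to 64350862, was covered over 3057 and 5134 bp in TGFβ libraries 1 and 2 over 381 bp in vehicle replicate 1 and over 278 bp in TGFβ replicate 3. An absent call bounds the signal only through the authors' threshold.

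One region had a larger batch 1 mean with vehicle. On chromosome 16 from 22079636 to 22085674, vehicle libraries 1 and 2 covered 3948 and 4770 bp and TGFβ libraries 1 and 2 covered 2442 and 5294 bp. The groups overlapped, and batch 2 went the other way, with 525 bp under TGFβ and 356 bp under vehicle. Vehicle also covered more in the pair of replicates 1 on chromosome 11 from 101058443 to 101065850 (6278 against 5881 bp) and chromosome 6 from 125456961 to 125462169 (4130 against 3943 bp). In the pair of replicates 2 it covered more on chromosome 11 from 98831716 to 98837414 (5482 against 5377 bp), chromosome 2 from 49992982 to 49998739 (5342 against 5189 bp) and chromosome 5 from 142944224 to 142950470 (6213 against 6050 bp). These 5 were chosen after their values were seen, and none went the same way in both batch 1 pairs.

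Most broad regions were also strong ones in batch 1, as ranked within each list. The median percentile of a region's highest fold among all peaks of the list was 94.1 and 95.2 in TGFβ libraries 1 and 2, and 85.5 and 89.8 in vehicle libraries 1 and 2. In batch 2 it was 77.5 with TGFβ and 82.4 with vehicle. Regions from 3000 to under 5000 bp had medians of 88.4, 91.4, 78.8, 75.6, 81.9 and 82.6 in TGFβ replicates 1 to 3 and vehicle replicates 1 to 3. A region with several peaks contributes its best, which raises these ranks. The lowest percentile of a broad region was 60.3 in TGFβ replicate 2, the list that gave most of the widest peaks, and 42.5 in TGFβ replicate 1. In vehicle libraries 1 and 2 the lowest was 1.49 and 18.6, so not every broad region was strong there.

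The 5 regions with the highest fold ranks in all 6 lists were not the widest. At the top, on chromosome 5 from 125465400 to 125472769, folds were 22.1, 34.2 and 16.5 in TGFβ replicates 1 to 3 and 19.7, 23.8 and 14.6 in vehicle replicates 1 to 3. It was covered over 4993 and 7370 bp in TGFβ libraries 1 and 2 and over 4740 and 7149 bp in vehicle libraries 1 and 2, so treatment groups overlapped. On chromosome 5 from 151290797 to 151296642, TGFβ gave folds of 30.3, 39.8 and 7.29, and vehicle gave 19.0, 20.4 and 5.90. TGFβ libraries 1 and 2 covered 4526 and 5845 bp there, and vehicle libraries 1 and 2 covered 1760 and 2905 bp. The other 3 were on chromosome 19 from 9952033 to 9961564, chromosome 1 from 91175506 to 91180881 and chromosome 13 from 63709588 to 63717412. Their strongest summits lay within 11, 55 and 87 bp across the 6 lists. In these 3, TGFβ libraries 1 and 2 covered more than vehicle libraries 1 and 2 in every case, by 817 to 2973 bp in the means.

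Many regions had a common strongest point. The strongest summits of the 4 batch 1 lists lay within 200 bp in 129 of 251 regions (51.4%), with a median span of 178 bp. Across all 6 lists they did so in 52 of 177 (29.4%). The median distance between strongest summits was 19 bp for TGFβ libraries 1 and 2 and 52 bp for vehicle libraries 1 and 2. Between treatments it was 85, 76 and 67 bp in the pairs of replicates 1, 2 and 3. In other regions the strongest point changed place, up to 11667 bp on chromosome 6 from 31053650 to 31067335.

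The bases of a region called in all 4 batch 1 lists, summed over separate pieces, served as its core. Cores made up 35.5% of the regions' width, with a median of 2202.5 bp, and 14 regions had a core of 5000 bp or more. In 10 regions no base was common to all 4. Short batch 2 peaks fell mostly inside: 80.6% of the length called in TGFβ replicate 3 and 81.4% of that in vehicle replicate 3 lay in the cores. These shares are of the length summed over all regions, and 32 regions had no batch 2 call.

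The number of broad regions differed between chromosomes. Chromosomes 1, 11, 19 and 2 held 29, 27, 26 and 26, which is 11.2%, 10.5%, 10.1% and 10.1% of them. Of all merged regions, these chromosomes held 10.2%, 7.91%, 7.83% and 11.0%. Chromosome X had 0 broad regions among its 333 merged regions, which are 0.562% of all. Per 1000 merged regions, chromosome 15 had 6.80 (25 regions), chromosome 17 had 6.22 (20) and chromosome 11 had 5.76 (27). Chromosomes 14, 10, 4, 12, 7 and 9 had 1.02, 1.14, 1.45, 1.53, 1.55 and 1.69 per 1000, on 1 to 3 regions each.

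**Figure D5:**
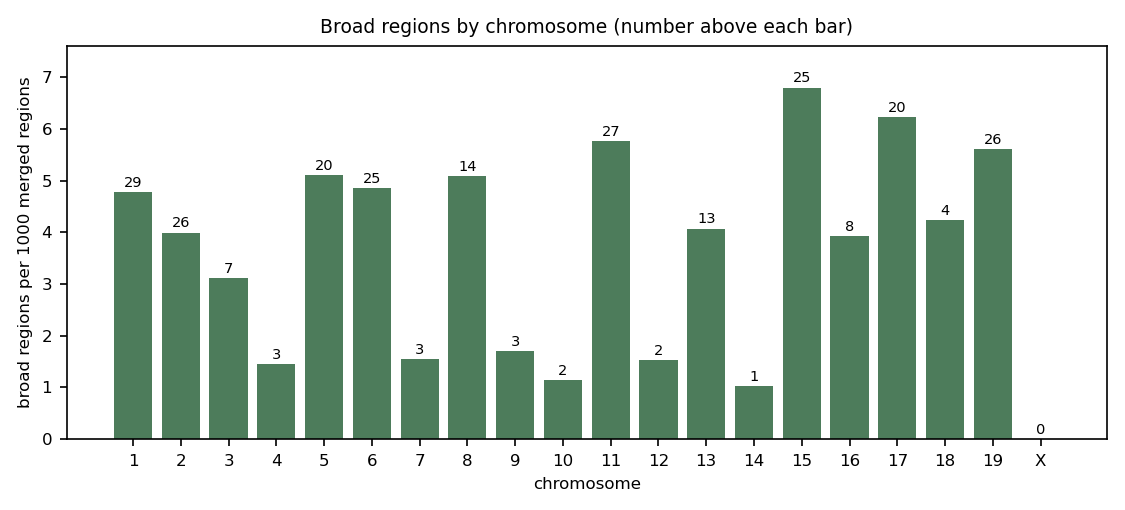
Broad regions per 1000 merged regions (vertical axis) on each chromosome (horizontal axis), with the number of broad regions above each bar. Chromosome 15 is highest at 6.80 per 1000, and chromosomes 4, 7, 9, 10, 12, 14 and X are lowest, at 0 to 1.69.

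They also lay in peak-rich surroundings. The median number of other merged regions within 50 kb was 12 (quartiles 7 and 15.75), against 9 for regions from 3000 to under 5000 bp and 5 for the other regions called in all 6 lists. Another broad region lay within 100 kb of 62 of the 258. Runs with gaps of at most 10 kb joined 20 regions into 9 groups. In the run on chromosome 15 from 101910528 to 101938428, 3 broad regions spanned 27901 bp. Their summed covered length was 15457, 17242 and 2341 bp in TGFβ replicates 1 to 3 and 6079, 10907 and 282 bp in vehicle replicates 1 to 3, so treatments separated within both batches.

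The other run of 3, on chromosome 2 from 18046818 to 18070771, spanned 23954 bp. It was covered over 15070, 18281 and 3287 bp in TGFβ replicates 1 to 3 and over 7825, 12602 and 3715 bp in vehicle replicates 1 to 3. TGFβ led in batch 1 and vehicle in batch 2. A pair on chromosome 5 from 99087936 to 99101754 was covered over 7677, 11277 and 1094 bp with TGFβ, and over 992 and 3721 bp in vehicle libraries 1 and 2, with no call in vehicle replicate 3. No rule picked this pair, and not every pair went the same way. On chromosome 9 from 102591882 to 102613788, vehicle covered more in batch 2.

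Local background differed between batches at these regions. It was recovered from the deposited fold and p-value of the strongest peak and is in overlapping fragments. Its median in the broad regions was 1.00 times the most common value of the list in both TGFβ libraries of batch 1, and 1.05 times in both batch 1 vehicle lists. In batch 2 it was 1.45 times in TGFβ replicate 3 and 1.24 times in vehicle replicate 3, where over all merged regions it was 1.03 and 1.02 times. Median fragments at the strongest summit were 118 and 140 in TGFβ libraries 1 and 2, 60 and 78 in vehicle libraries 1 and 2, and 52.5 and 49 in TGFβ and vehicle replicates 3. The part of background in the narrow batch 2 peaks was not tested.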

How the data were processed

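RUNX1 ChIP-seq peak lists of 6 libraries were used, and the 4 input libraries were not analysed here. Per the submitters' processing notes, DRAGEN, Trimmomatic, Bowtie2 2.5.2 and MACS2 were used with build mm39 (GRCm39). Settings, filters and the control library are not given in the sources used here. The deposited lists hold 1 library each. The deposited lists give the authors' fold enrichment at the summit (a ratio), −log10 p, −log10 q (lowest just above 1), a score and the summit's offset. Total read counts are not in the lists, so depth is unknown and limits the precision.

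With Python 3.11.15, pandas 2.3.3 and NumPy 2.4.6, peaks sharing at least 1 bp were merged across lists, and peak number, covered length and highest fold were taken per list. Fold was used to rank peaks within a list. Local background was solved from fold and p, assuming a Poisson tail and a pseudocount of 1, and 100% of peaks gave a solution within 0.01 on −log10 p (within 0.01% of it for values above 100). Merging was tested on simulated data, where 200 of 200 planted broad regions were recovered among 3000. Coordinates are 1-based in GRCm39.

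Named regions were the 10 widest, the 10 with the largest batch 1 difference going the same way in batch 2, those with the opposite sign in batch 1 (at most 5), the 5 with the highest median fold percentile in all 6 lists, and the 3 on each side of the width threshold. The members, rules and comparisons were chosen with earlier results of these data known. Planned results on transcription starts, nearby genes and sequence content were not run, since the tables in hand are of GRCm38. Alternatives are given in the closing section.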

Additional observations from a re-analysis of the deposited data

How the results depend on the processing

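The count of broad regions (258) followed the definition: 615 at a width of at least 4000 bp, 128 at 6000 bp and 551 when peaks within 500 bp were merged. Leaving out 1 library gave 82 (without TGFβ replicate 2) to 258. Regions called in all 6 lists (177) numbered 392, 95 and 333 under those definitions and 116 at a −log10 q of at least 5. Regions with more covered length in each batch 1 TGFβ list than in each batch 1 vehicle list (207, a count added after the data were seen) numbered 496, 97 and 448, and 58 to 244 with 1 library left out. The batch 1 ratio of covered length (1.70) stayed above 1 in the 15 settings tried, and ran from 1.30 to 2.13 with 1 library left out. The batch 2 ratio (1.46) stayed above 1 in 12 settings and became 1.74 among peaks passing a −log10 q of 5. Over 3 against 3 libraries the ratio (1.68) ran from 1.06 (without TGFβ replicate 2) to 2.52 (without vehicle replicate 2) when 1 library was left out, which unbalances the batches. It was 1.63 under the replicate block, the geometric mean of 3 pairs matched by batch and title wording. Regions with more covered length in every TGFβ list than in every vehicle list (0) numbered 1 at a −log10 q of at least 5, 1 in lists of equal length, 6 at 4000 bp, 5 with peaks within 500 bp merged and 206 in batch 1 lists only, and 0 to 206 with 1 library left out. The opposite count was 0 in every setting tried. Without read counts, a base outside a peak can lie just under the threshold, and the cause of these changes was not tested beyond what each definition sets.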
